A study of Pan troglodytes with 50 samples.

Results

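H3K27ac peaks listed at stage N2 but not at stage N3 were described in neural progenitors of the chimpanzee induced pluripotent stem cell line Pt2A, the only line with these lists. Members were chosen by position and width, as the peaks of the N2 list that were under 5000 bases wide and shared no base with any peak of the N3 list. This rule gave 49865 N2-only narrow peaks out of 102693 peaks of the N2 list, and out of 192118 peaks in the N2 and N3 lists together. Both lists were used to choose the members, so their strength at N2 and their absence from the N3 list are descriptions and carry no test.

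The study also tested human accelerated regions in reporter assays, which are not analysed here. Cells labelled N2 are called neural progenitors and cells labelled N3 glial progenitors in the sample sources, both are described as telencephalon, and the cell type field calls both neural progenitors derived from the pluripotent line. The labels give the same medium for both stages, N2B27 with bFGF and EGF on matrigel, and name no other treatment or allele. Each stage had 2 H3K27ac ChIP-seq libraries and 2 input libraries of Pt2A, and 1 list per stage was made from the pooled replicates. No value of a single library was at hand, so no list has an error, no difference between the lists could be tested, and N2 and N3 cannot be told apart from the libraries they were read in.

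Acetylation of histone H3 at lysine 27 marks nucleosomes beside active enhancers and promoters. It is laid down by the coactivators EP300 and CREBBP, is removed by histone deacetylases, and is lost or gained at many distal enhancers as progenitor cells change state. Neural progenitors first make neurons and later glia, and the enhancers they use differ between these phases. Promoters of widely used genes tend to carry broad and strong marks in many cell types, while narrow distal marks vary more between cell types.

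The chromosome names 2A and 2B show that peaks were placed on a chimpanzee assembly, whose version the labels do not state. Positions below are 1-based on that assembly. No gene annotation or sequence of that assembly was used here, so peaks are named by position, no peak was assigned to a gene, and the labelled cell type was not checked against marker genes.

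The N2-only narrow peaks were mostly short and weak. Their width had a median of 571 bases, with quartiles of 372 and 1098 bases, against a median of 1402 bases (607 and 2463.5 as quartiles) for the 47495 narrow N2 peaks that overlapped an N3 peak. The signal value, which the authors' peak caller gave to each peak, had a median of 2.81 with quartiles of 2.41 and 3.65, against 4.30 with quartiles of 2.83 and 10.0 in the shared narrow peaks. The upper tails differed more than the medians: the highest twentieth of the N2-only narrow peaks began at a signal value of 7.56 and that of the shared narrow peaks at 27.6. N2-only narrow peaks covered 44.9 of the 169 Mb in the N2 list, or 26.6%, while they made up 48.6% of its peaks.

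**Figure D1:**
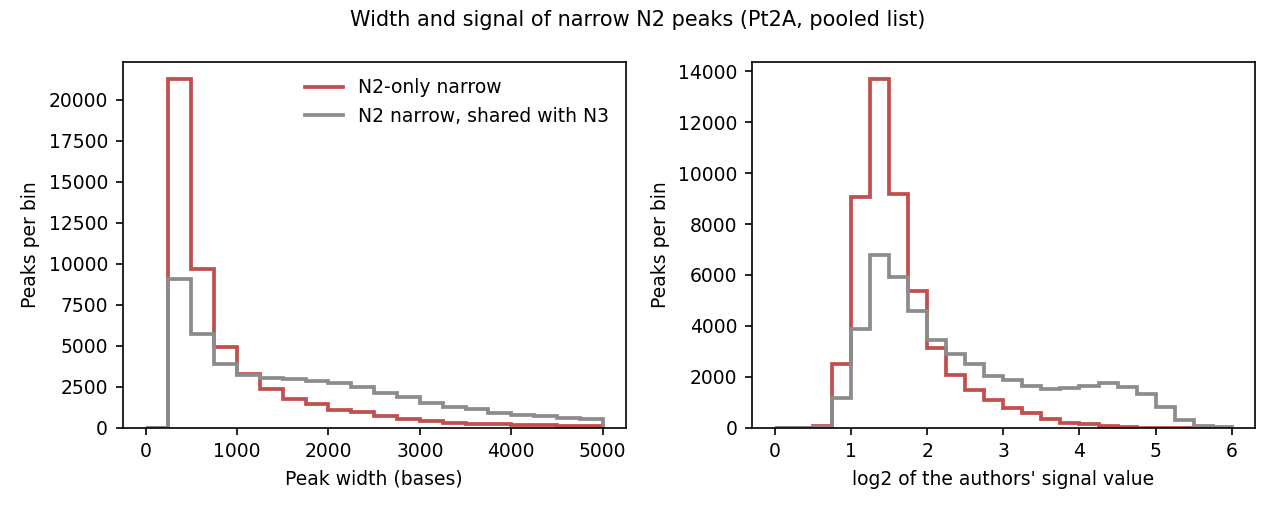
Number of narrow N2 peaks per bin by width in bases (left) and by log2 of the signal value that the authors' caller gave (right), for the 49865 N2-only narrow peaks (red) and the 47495 narrow peaks that overlapped an N3 peak (grey). The N2-only peaks crowd at widths under 1000 bases, and the shared peaks have a second, stronger group at high signal that the N2-only peaks lack.

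Among all narrow N2 peaks, 51.2% had no N3 peak over them, and this share was much lower in strong peaks. It was nearly level in the weakest, at 71.3% below a −log10 q of 1.3, 71.6% from 1.3 to 2 and 69.3% from 2 to 3. It then fell to 65.1% from 3 to 5, 45.0% from 10 to 20 and 35.4% from 20 to 50. At 50 or more it was 10.6%, where 1535 of 14515 narrow peaks were N2-only. The N3 list, read the same way, gave 42.8% of narrow peaks with no N2 peak over them. Its share was 64.1% below a −log10 q of 1.3, 66.1% from 1.3 to 2, 64.3% from 2 to 3 and 5.90% at 50 or more. The fall with strength was thus seen in both directions. Both lists reach down to a −log10 p of 2.00, and 2111 of the N2 peaks have a q above 0.05.

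**Figure D2:**
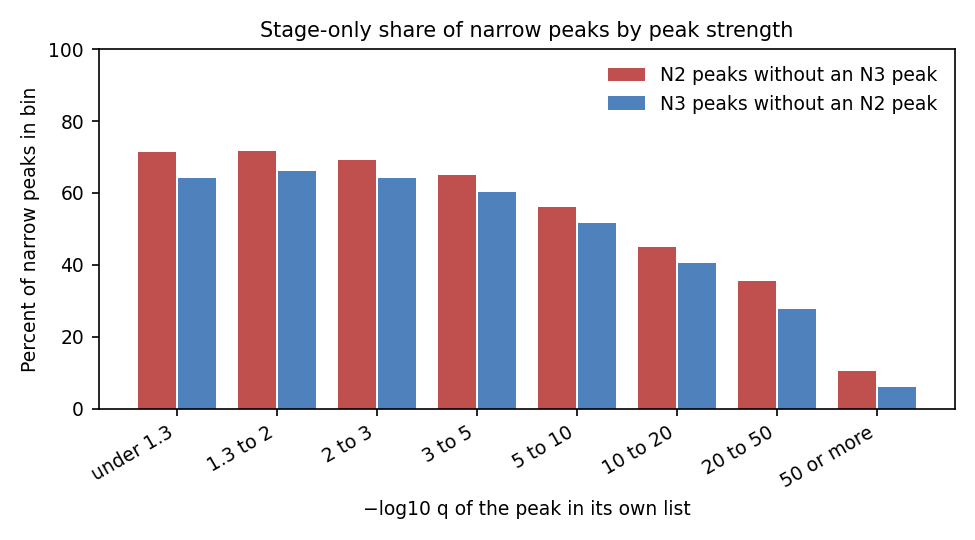
Percent of narrow peaks in each bin of −log10 q that had no peak of the other stage over them, for the N2 list (red) and the N3 list (blue), each binned by the q of its own list. From the weakest bin to the strongest the share goes from 71.3% to 10.6% at N2 and from 64.1% to 5.90% at N3. Below a −log10 q of 3 it is nearly level in both lists.

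The share also fell with width, which the rule itself uses and which makes an overlap of 1 base more likely in a wider peak. Of narrow N2 peaks from 300 to 500 bases wide 69.3% were N2-only, of those from 1000 to 1500 bases 47.6%, and of those from 4000 to 5000 bases 17.2%. Within 1 band of strength the N2-only and shared peaks had similar medians. From a −log10 q of 10 to 20 the median signal values were 4.57 and 4.59 and the median widths 1478.5 and 1621 bases. Signal value and q both measure the strength of a peak, so a band of q by itself brings the signal values together. In the band of 50 or more, N2-only peaks were weaker (median 11.6 against 18.1) but wider (3094 against 2756 bases) than shared narrow peaks. That band has no upper limit, and its peaks were not matched in strength: −log10 q reached 342 in N2-only and 888 in shared narrow peaks. The summit of the signal lay at a median of 49.2% of the width in N2-only peaks, with quartiles of 34.7% and 64.0%. In shared narrow peaks the median was 49.7%, with quartiles of 37.0% and 62.2%.

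Ranked by p, N2-only narrow peaks were rare at the top of the list. None of the first 1000 N2 peaks was a member, where 551 were narrow. Members were 15 of the first 5000, where 3424 were narrow, and 121 of the first 10000, where 7060 were narrow. The best placed member stood at rank 2653. Broad peaks absent from the N3 list, which the width limit keeps out, reached higher: 4 of the 611 were among the first 1000. By signal value the highest member, at 39.7, lay within the highest twentieth of shared narrow peaks, which began at 27.6.

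The member with the highest signal value lay on chromosome 13, from 39002870 to 39006630, with a signal value of 39.7 over 3761 bases and its nearest N3 peak 149 kb away. The next, on chromosome 8 from 92280563 to 92284500, had a signal value of 35.3 and an N3 peak at 22.3 kb. On chromosome 2A, from 101534365 to 101539163, a member of 32.5 had the highest −log10 q of all members (342) and no N3 peak within 211 kb. These 3 peaks had 6 other members each within 100 kb, and the strongest of these neighbours had signal values of 10.0, 5.17 and 7.06.

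Some other strong members had several N3 peaks within 100 kb. On chromosome 22, from 10281436 to 10285504 (signal value 31.7), 16 N3 peaks lay within 100 kb, the nearest at 16.9 kb. The peak on chromosome 3 from 24353853 to 24355660 (30.7), the narrowest of the 10 members highest in signal at 1808 bases, had an N3 peak only 1856 bases away and 21 within 100 kb. Those on chromosome 6 (102105201 to 102109204; 28.3) and chromosome 15 (65254973 to 65257633; 27.9) had 8 and 6 N3 peaks within 100 kb. The tenth, on chromosome 11 from 122420648 to 122425363 (27.9), had none. Of the 10 members highest in signal, 4 had no N3 peak within 100 kb.

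At 2 sites a strong member was part of a larger N2-only block. On chromosome 22, members from 32787993 to 32791253 (28.4) and from 32792536 to 32797210 (21.0) lay 1282 bases apart. Within 100 kb of the first were 12 other members, 5 broad N2-only peaks of up to 11506 bases, and no N3 peak at all. On chromosome 19, from 3520464 to 3524046 (29.6), the neighbourhood of 100 kb held 23 other members, the strongest at 23.9, and 3 broad N2-only peaks, but also 4 N3 peaks.

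Chromosome 10 held 2 further members chosen for their q. The member from 129901484 to 129905568 (signal value 23.5, −log10 q 321) was 215 kb from the nearest N3 peak. It had 15 other members and 4 broad N2-only peaks of up to 18395 bases within 100 kb. The member from 125955323 to 125959939 (19.0, −log10 q 318) had 36 other members and 3 broad N2-only peaks around it and a single N3 peak, 14.9 kb away.

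The 5 widest members measured 4994 to 4999 bases, with signal values from 9.79 to 18.0. They lay on chromosomes X (17393466 to 17398464), 9 (92659349 to 92664346), 2A (19404184 to 19409181), 12 (128284209 to 128289204) and 6 (17118227 to 17123220). The one on chromosome 12 was 707 bases from an N3 peak and the other four were 12.0 to 71.0 kb away. Just outside the limit, the 5 narrowest of the broad N2-only peaks were 5003 to 5016 bases wide with signal values from 6.23 to 25.1. On the overlap side of the rule, 597 members lay under 100 bases from an N3 peak (6 touched one), and 627 shared narrow peaks were overlapped by under 100 bases. Both sets were weak, with median signal values of 2.55 and 2.53.

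Most N2-only narrow peaks did not adjoin a peak of the N3 list. The median distance to the nearest N3 peak was 7752 bases. An N3 peak lay within 1 kb of 6474 members (13.0%), from there to 10 kb for 21200 (42.5%), from 10 to 100 kb for 17896 (35.9%), and beyond 100 kb for 4295 (8.61%). Members were stronger the farther they lay from N3 peaks: the median signal value rose over these bands from 2.62 through 2.75 and 2.95 to 3.11. The share with a −log10 q of 50 or more rose with it, from 0.556% through 2.01% and 4.24% to 7.29%. N3-only narrow peaks fell into the same bands of distance to N2 peaks in 14.4%, 42.2%, 35.1% and 8.27% of cases. Their strength rose with distance as well, from a median signal value of 2.53 through 2.69 and 2.95 to 3.21 within the N3 list, and from 0.514% to 6.44% with a −log10 q of at least 50.

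The 1535 members with a −log10 q of at least 50, 3.08% of all, had a median width of 3094 bases and a median signal value of 11.6. Their nearest N3 peak was at a median of 24.6 kb, and 69.8% of them had none within 10 kb. How much signal N3 had at these places is not given by the lists. The 1005 N3-only narrow peaks at that limit in the N3 list were placed much alike. Their nearest N2 peak was at a median of 23.0 kb, and 70.5% had none within 10 kb.

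N2-only peaks lay beside each other, which the rule itself favours. A place without N3 peaks makes members of all narrow N2 peaks in it, and members lay a median of 7752 bases from an N3 peak. The shares below are thus descriptions. Each listed interval was counted as its own peak, also where gaps were short. The nearest other N2 peak was another N2-only narrow peak for 65.9% of members and a shared narrow peak for 27.7%, while members made up 48.6% and shared narrow peaks 46.2% of the list. For shared narrow peaks it was the other way round, with 65.2% nearest to a shared and 30.3% nearest to an N2-only narrow peak. A broad shared peak was the nearest for 5.24% of members and 4.48% of shared narrow peaks. Members also lay closer to their next N2 peak, at a median of 823 bases against 1471 bases, and 53.2% of them had an N2 peak within 1 kb. N3-only narrow peaks lay beside each other in the same way: the nearest N3 peak was another N3-only narrow peak for 59.9% of them, at 40.7% of that list, and the median gap was 1065 bases against 1832 for shared narrow N3 peaks. Of the 26528 members with an N2 peak within 1 kb, 19029 had another member as that neighbour and 1696 a broad shared peak.

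Counted between consecutive N3 peaks, of whatever strength, 19582 stretches held at least 1 member. In 9464 of them (48.3%) the member was alone. At the other end, 544 stretches held 10 or more members and together 8854, which is 17.8% of those that lay between N3 peaks. These long stretches had a median length of 215 kb, and 201 of them also held a broad N2-only peak. The N3-only narrow peaks, counted between N2 peaks, had at most 41 in a stretch, and 295 stretches with 10 or more held 11.5% of them. The N3-only peaks were fewer (36423) and were divided by the longer list, into 102668 stretches against 89400, so these counts are not like for like.

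The fullest stretch lay on chromosome 7, from 67992899 to 70154096. Over 2161 kb without an N3 peak it held 89 N2-only narrow peaks with a median signal value of 2.99 and a highest of 21.9, of which 8 had a −log10 q of at least 50. It also held 5 broad N2-only peaks, the widest of 11405 bases, and 2 of these had signal values of 37.9 and 35.0, above every narrow member there. The members were not spread evenly: their centres lay at a median of 882 kb from its start, with quartiles of 730 and 1335 kb.

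**Figure D3:**
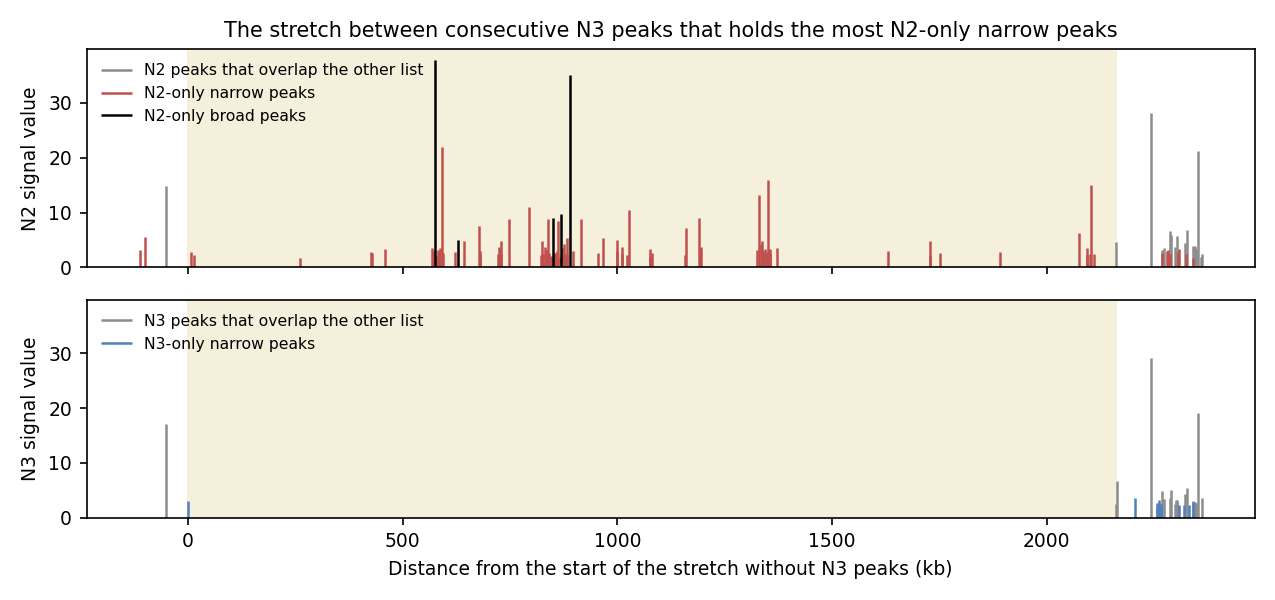
Peaks of the N2 list (top) and the N3 list (bottom) by distance in kb from the start of the stretch on chromosome 7 that holds the most N2-only narrow peaks (shaded, 2161 kb), with 200 kb on either side. Line height is the signal value that the authors' caller gave in each list. The stretch was cut between consecutive N3 peaks, so by construction the N3 panel is empty inside the shading and all N2 lines there are N2-only. These are 89 narrow (red) and 5 broad (black) peaks. Both flanks hold peaks of both lists.

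Some of the other full stretches were shorter and denser. On chromosome 1, from 1876398 to 2700364, 87 members and 9 broad N2-only peaks filled 824 kb. On chromosome 9, from 75994278 to 76529345, 69 members lay in 535 kb, or 12.9 per 100 kb, the densest of the 10 fullest stretches, and the strongest reached 22.6. A stretch on chromosome 16 (9546656 to 10773480) held 65 members with no broad N2-only peak, 6 of them at a −log10 q of at least 50. Stretches on chromosomes 15 (68290896 to 69190828), 10 (6477761 to 8047797) and 11 (130872284 to 131461693) held 64, 58 and 58. The stretch on chromosome 8, from 138155415 to 142423115, was sparse, with 61 members over 4268 kb, but 7 of them were at a −log10 q of at least 50.

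The 1535 members with a −log10 q of at least 50 lay in 1215 stretches, of which 197 held 2 or more and 30 held 4 or more. Of these members, 1018 were the only one of that strength in their stretch and 517 (33.7%) had another in the same stretch, at whatever distance. A compact case was chromosome 22, from 25436131 to 25753260, where 7 of 17 members in 317 kb were that strong. The median signal value there was 4.86 and the highest 22.1, and no broad N2-only peak was present.

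Windows of 1 Mb showed the same crowding where N3 peaks were present. The median window held 13 members and 164 of 2830 windows held 50 or more. The window with the most was on chromosome 16, from 76000001 to 77000000, with 128 members and only 11 shared narrow peaks, so that 92.1% of its narrow N2 peaks were N2-only. It held 35 N3 peaks in all, of which 1 was an N3-only narrow peak. The next 4, on chromosome 6 (168000001 to 169000000), 18 (42000001 to 43000000), 10 (25000001 to 26000000) and 14 (56000001 to 57000000), held 107, 105, 103 and 100 members with 32, 27, 38 and 40 shared narrow peaks and 11, 5, 8 and 8 N3-only narrow peaks. N3 peaks of any class in these 4 windows numbered 54, 42, 71 and 50. Members in the 5 windows were of ordinary strength, with median signal values from 2.53 to 2.89. Crowding by window was nearly as marked in shared narrow peaks. The tenth of windows richest in members held 31.3% of all members, and the tenth richest in shared narrow peaks held 28.3% of those.

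Chromosomes differed little in how many of their N2 peaks were N2-only and more in the balance with N3. The N2-only share of narrow N2 peaks ran from 44.7% on chromosome X to 56.4% on chromosome 10, with 55.1% on chromosome 14, 54.4% on chromosomes 8 and 15, and 45.7% on chromosome 19. Chromosome Y, with 20 members among 67 narrow peaks (29.9%), was the exception. The N3-only share of narrow N3 peaks ranged more widely, from 23.1% on chromosome 19, 31.7% on chromosome 17 and 32.8% on chromosome 14 to 52.7% on chromosome 4 and 68.9% (82 of 119 peaks) on chromosome Y.

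There were 2.57 N2-only narrow peaks for each N3-only narrow peak on chromosome 19, 2.36 on chromosome 14 and 2.15 on chromosome 17, against 1.37 over the genome. On chromosomes 18, 12, 4 and 13 the lists were near balance, at 1.01, 0.99, 0.93 and 0.89, and on chromosome Y the ratio was 0.24. N2-only peaks outnumbered N3-only peaks on 21 of 25 chromosomes. The N2 list is the longer one, and with both cut to 89425 peaks by p, the ratio was 1.05 over the genome and N2-only peaks were the more numerous on 14 of 25 chromosomes. Chromosomes 19, 14 and 17 stayed at the top, at 2.01, 1.81 and 1.61, and chromosomes 4, 13 and Y at the bottom, at 0.71, 0.69 and 0.22. With members and N3-only peaks limited to a −log10 q of at least 5, the ratio was 1.28 over the genome. N2-only peaks were then the more numerous on 19 of 25 chromosomes, and the ratios on chromosomes 19, 14 and 17 were 2.59, 2.34 and 2.14.

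**Figure D4:**
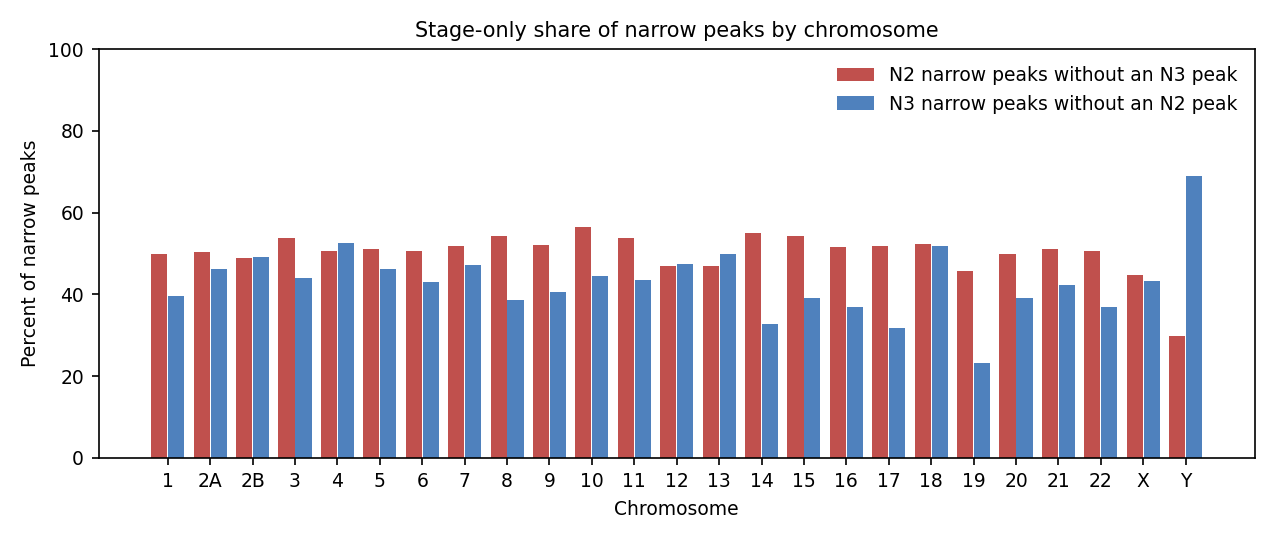
Percent of narrow peaks on each chromosome that had no peak of the other stage over them, for the N2 list (red) and the N3 list (blue). The red bars stay between 44.7% and 56.4% apart from chromosome Y (29.9%), while the blue bars fall to 23.1% on chromosome 19 and reach 68.9% on chromosome Y.

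On chromosome X the 1185 members had a median signal value of 3.06, the same as the 20 members on chromosome Y and higher than on any other chromosome, where medians ran from 2.72 to 2.90. Shared narrow peaks also had raised medians on chromosomes X (4.96) and Y (4.70), against 4.30 over all of them. Their order was not the same, since chromosomes 19 (8.40), 17 (5.18) and 16 (4.97) stood higher. On chromosome 19 members stood at 2.81. Sequence copy, input depth and mappability of the chromosomes are not given by the lists, and their part in these values was not tested.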

How the data were processed

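H3K27ac ChIP-seq of Pt2A cells at N2 and N3 was used as 2 peak lists that the authors deposited, each pooled over 2 replicates per the labels and file names. The sources used here do not give the peak caller, its settings, library depths or the chimpanzee assembly. The submitters' processing notes name GRCh37 alone. Per the deposited lists, each peak has a signal value, whose scale over input is not stated, and a −log10 p and −log10 q (p-value and q-value) from the caller, and the offset of its summit. These values were used to describe and rank peaks within 1 list, and to set limits of rank or q on both lists. Whether such limits mean the same in both lists was not tested.

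Peaks were set against each other by overlap of at least 1 base in Python 3.11.15 (numpy 2.4.6, pandas 2.3.3). The functions were tested on simulated intervals, and the non-overlapping peaks were the same as those from bedtools 2.31.1. Distances count the bases between peak edges. The members and lists were chosen with earlier results of these data known. Named were the 10 members highest in signal value, the 5 widest, the 3 of highest q not yet named and the 5 windows of 1 Mb with the most members. Stretches between N3 peaks, the equal-length ratios per chromosome and the band of −log10 q of at least 50 were chosen after the data were seen. Gene lists were not counted, because no annotation of the assembly was used here. Reporter libraries were not analysed here, since their elements are placed on GRCh37. No test was made, because each stage is 1 pooled list.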

Additional observations from a re-analysis of the deposited data

How the results depend on the processing

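The number of N2-only narrow peaks stayed within 1.5 times of 49865 when an N3 peak within 1000 bases counted as shared, when N3 had to cover 50% of the peak, when N3 peaks needed a −log10 q of at least 5, with lists of equal length, and with other width limits (40438 to 57365). It fell to 20089 with N2 peaks of −log10 q of at least 5 and to 24154 with that limit in both lists. Of 2 settings added after the data were seen, a −log10 q of at least 50 left 1535 and an N3 peak within 10000 bases counting as shared left 22191. The median signal value of 2.81 became 4.00 (N2 limit of 5), 4.02 (both lists), 11.6 (limit of 50), 2.82 (any width), 2.78 (under 3000 bases), 2.85 (1000 bases), 2.97 (10000 bases), 2.90 (50% cover), 2.85 (N3 limit of 5) and 3.04 (equal length). The median distance to N3 of 7752 bases became 10864, 12703, 24560, 7844, 7534.5, 10438, 30570, 5611, 10006 and 8334.5 bases in the same order. Stricter N2 limits keep stronger peaks by construction. Counting an N3 peak within 1000 or 10000 bases as shared removes the members nearest to N3, which by construction lengthens the median distance. The 50% cover setting adds peaks that overlap an N3 peak, which shortens it. Counting of single intervals and of assembled chromosomes alone changed nothing to compute, since no interval repeats and the lists hold 25 chromosomes and no other sequence. Shares near gene starts were not run, for want of an annotation used here. No paired analysis was possible because the replicates of each stage were pooled before peaks were listed, and for the same reason no replicate could be left out. Depth limits all counts, since a peak absent from the N3 list may have signal under its calling limit.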
